A study of Mus musculus with 2 samples.

Results

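The caveolae coat genes are 10 genes for the proteins that build and hold caveolae, chosen by name: the caveolins Cav1, Cav2 and Cav3, the cavins Cavin1 to Cavin4, the ATPase gene Ehd2 and the membrane-bending genes Pacsin2 and Pacsin3. All 10 were measured, each by 1 probe set that names no other gene, among 19938 genes with a named probe set. The arrays held RNA of hindlimb skeletal muscle from male C57BL/6J mice on standard chow, with 1 array for mice carrying a Syn4 transgene (overexpression) and 1 array for wild-type mice. Syn4 is syntaxin 4, a membrane fusion protein of the cell surface. The labels give neither the promoter that drives the transgene, nor the age of the mice, nor how many mice stand behind an array. The deposited values are RMA log2 intensities, and each difference is transgenic minus wild type. With 1 array per genotype there was no measure of the spread between mice, so no difference was tested and each value stands without an error.

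Caveolae are small flask-shaped pits of the plasma membrane, rich in cholesterol, that are abundant in muscle fibres, adipocytes and endothelium. Caveolins insert into the membrane and form oligomers, cavins coat them from the cytosol, and EHD2 with the pacsins shapes and steadies the neck. Caveolae flatten when the membrane is stretched and gather signalling proteins, the insulin receptor among them. In humans, mutations of CAV3 cause muscle disease, and loss of CAVIN1 causes lipodystrophy with myopathy.

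The genes for the caveolar coat had similar levels in both arrays. Of the 10 members, 9 were higher in the transgenic array and Cav3 was lower, and all 10 differences lay between -0.24 and 0.38. Among the 9974 genes at or above the level filter, 53.5% were higher and 44.2% lower by any amount. This filter kept a gene whose higher value reached 6.79, the median of that value over all genes, and all 10 members passed it in both arrays. None of the members differed by 1.5-fold (0.58 on the log2 scale) in either direction. Of the 9974 genes, 2.66% were higher and 1.71% lower by that much, so a count of 0 among 10 is near the background. The median difference of the members was 0.145, against 0.03 over the 9974 genes, whose interquartile range was -0.12 to 0.17. Within that range lay 6 of the 10 members, while Cavin1, Cavin3 and Cavin4 lay above it and Cav3 below it.

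**Figure D1:**
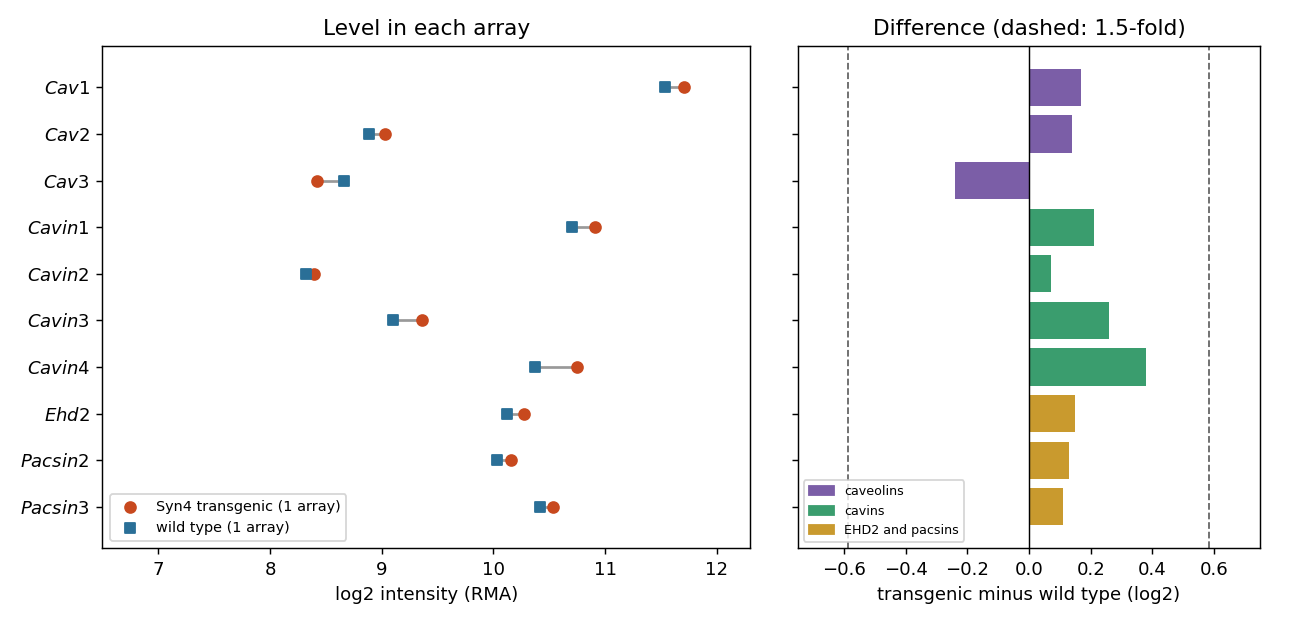
Log2 intensity of each caveolae coat gene in the Syn4 transgenic (circles) and wild-type (squares) arrays, with the difference as bars coloured by role on the right and dashed lines at 1.5-fold. Cav3 is the only member with a bar to the left of 0, at -0.24, and Cavin4 has the longest bar, at 0.38. Each point is 1 array, and levels of different genes are read by different probes and are not comparable.

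Stx4a served as the check of the genotype labels, and the skeletal muscle markers as a check of the tissue only. Stx4a, the mouse syntaxin 4 gene, was at 12.20 in the transgenic array, against 8.84 in wild type, a difference of 3.36. The skeletal muscle markers were near equal, with all 8 above the level filter and a median difference of 0.15. Ckm, muscle creatine kinase, was lowest at -0.03 and Ttn, the sarcomere protein titin, highest at 0.20. These markers read at 12.98 or above in both arrays, and whether differences at that level were compressed was not tested. The median over all probe sets was 6.06 in both arrays, which is no check of the labels because RMA brings arrays to a like scale.

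Among the caveolins, the broadly expressed pair was slightly higher and the muscle form lower in the transgenic array. Cav1, the main structural protein of caveolae in most cells outside striated muscle, was at 11.71 in the transgenic array, against 11.54 in wild type. Its difference of 0.17 is a level 12.5% higher. Of all genes above the filter, 45.7% differed by at least as much in either direction. Cav2, which forms mixed oligomers with caveolin-1, was at 9.03 in the transgenic array, against 8.89 in wild type, a difference of 0.14. Cav1 and Cav2 are neighbours on chromosome 6 with no other measured gene between them, and their differences were within 0.03 of each other in size. Cav3, the caveolin of skeletal and cardiac muscle fibres, was at 8.42 in the transgenic array, against 8.66 in wild type. Its difference of -0.24 was the lowest of the 10, and 30.3% of genes above the filter differed by at least as much. Among the 501 genes nearest in mean level, itself included, Cav3 was number 137 by size of difference. The difference of Cav3 lay 0.41 below that of Cav1, so the ratio of these signals was not equal in the arrays.

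Of the cavins, Cavin4, Cavin3 and Cavin1 held the 3 largest positive differences of the members, whereas Cavin2 held the smallest. Cavin1, which is needed for caveolae to form in all tissues studied, was at 10.91 in the transgenic array, against 10.70 in wild type, a difference of 0.21. Cavin2, which takes part in caveolar membrane bending, was at 8.39 in the transgenic array, against 8.32 in wild type, the smallest difference of the members at 0.07. Of the genes above the filter, 76.6% differed by at least as much as Cavin2. Cavin3, a binding partner of protein kinase C delta, was at 9.36 in the transgenic array, against 9.10 in wild type, a difference of 0.26 or a level 19.7% higher. Cavin4, also known as Murc, is the cavin of skeletal and cardiac muscle. It was at 10.75 in the transgenic array, against 10.37 in wild type. The difference of 0.38, or 1.30-fold, was the highest of the members and the only one past a lower limit of 0.32 on the log2 scale. At that limit 10.3% of the genes above the filter were higher and 6.86% lower, so 1 of 10 members is again near the background. By size of difference, Cavin4 was number 71 of its 501 nearest genes in level. The local spread of those genes, their scaled median absolute deviation, was 0.21, and Cavin4 lay 1.78 such spreads above their median. Cavin3 lay 1.11 spreads above, Cav3 was at -1.26 spreads, and the other 7 members were within 1 spread. This spread is taken over genes, not mice, and replaces no replicate. The median difference was 0.235 over the 4 cavins and 0.14 over the 3 caveolins.

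The muscle-restricted members Cav3 and Cavin4 thus stood at opposite ends of the 10, with their differences 0.62 apart. The 250 bases before their annotated starts are shown with those of Cav1 and Cavin1, their counterparts of wider expression. The difference of Cavin4 lay only 0.17 above that of Cavin1, and both were positive. A link between these bases and the array values was not tested. Sequences are from RefSeq on GRCm38.p6, where 9 of the 10 members matched, and run 5′ to 3′ on the gene's strand, with the first annotated start of each gene used. They lie at chr6:112459255-112459504 (plus strand), chr4:48663264-48663513 (plus strand), chr6:17306085-17306334 (plus strand) and chr11:100970618-100970867 (minus strand). Capitals mark the E-box CANNTG, a motif that myogenic factors can bind, and the TATA box TATAAA on either strand. No matches in capitals overlap.
Cav3: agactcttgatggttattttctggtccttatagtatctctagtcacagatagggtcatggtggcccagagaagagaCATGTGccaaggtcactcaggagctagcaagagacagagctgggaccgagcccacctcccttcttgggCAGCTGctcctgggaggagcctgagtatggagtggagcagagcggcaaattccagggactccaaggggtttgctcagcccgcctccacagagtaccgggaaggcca
Cavin4: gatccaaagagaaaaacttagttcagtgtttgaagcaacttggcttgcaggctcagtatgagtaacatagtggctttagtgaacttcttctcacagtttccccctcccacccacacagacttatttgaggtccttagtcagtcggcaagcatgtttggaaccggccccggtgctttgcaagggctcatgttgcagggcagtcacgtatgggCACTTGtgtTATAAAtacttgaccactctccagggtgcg
Cav1: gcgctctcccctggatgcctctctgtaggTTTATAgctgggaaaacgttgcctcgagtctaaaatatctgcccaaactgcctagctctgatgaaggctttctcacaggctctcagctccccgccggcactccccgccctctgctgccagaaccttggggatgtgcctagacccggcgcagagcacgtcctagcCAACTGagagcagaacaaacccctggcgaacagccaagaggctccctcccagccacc
Cavin1: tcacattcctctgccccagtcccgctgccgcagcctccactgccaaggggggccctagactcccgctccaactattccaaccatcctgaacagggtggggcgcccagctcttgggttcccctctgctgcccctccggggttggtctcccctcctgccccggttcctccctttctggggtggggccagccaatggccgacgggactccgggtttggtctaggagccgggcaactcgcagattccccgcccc

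The window of Cavin4 held a TATA box that began 30 bases before the start and an E-box that began 39 bases before it. The window of Cav3 held 2 E-boxes, which began 174 and 106 bases before the start, and no TATA box by these letters. Cav1 had 1 E-box, beginning 57 bases before the start, and a TATA box on the opposite strand 221 bases before it. Cavin1 had neither, but had a CCAAT box (CCAAT on either strand) that began 63 bases before the start. Over the 9 members with a window, 6 held an E-box, against 66.2% of all 32851 windows of this length in the table. The 9 members had 14 windows in all, but each was counted at its first start only. The 32851 windows were not limited to first starts, so these shares are of unlike units. A TATA box was in 2 of 9 members against 12.4% of windows, a CCAAT box in 6 of 9 against 33.8%, and a GC box (GGGCGG on either strand) in 6 of 9 against 32.7%. A MEF2 site and a CArG box, searched on both strands, were in none of the 9 and in 2.92% and 1.47% of all windows. GC box and CCAAT box matches were counted without regard to overlap with other motifs. CG dinucleotides numbered 4 in the window of Cav3, 5 in that of Cavin4, 10 in that of Cav1 and 12 in that of Cavin1, against a median of 6 over all windows. A match is a description of the letters and not a bound site.

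The neck genes among the members were slightly higher in the transgenic array, by amounts like those of Cav1 and Cav2. Ehd2, an ATPase that forms rings at the neck and holds caveolae at the surface, was at 10.27 in the transgenic array, against 10.12 in wild type, a difference of 0.15. Pacsin2, an F-BAR protein that bends membrane, was at 10.16 in the transgenic array, against 10.03 in wild type, a difference of 0.13. Pacsin3, the pacsin prominent in muscle, was at 10.53 in the transgenic array, against 10.42 in wild type, a difference of 0.11. These differences span 0.04 and each was smaller than the local spread. Their relatives, listed with dynamins as genes of the neck and of scission, differed more widely. Of 7 measured, 4 were higher and 3 lower, with a median of 0.08. None passed 1.5-fold, near the background of 2.66% higher and 1.71% lower among genes above the filter. Ehd4, a related ATPase of endosomes, was highest at 0.46 (9.88 in the transgenic array, against 9.42 in wild type). Pacsin1, the neuronal pacsin, was lowest at -0.45, but its 6.01 in the transgenic and 6.46 in the wild-type array were under the level filter.

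**Figure D2:**
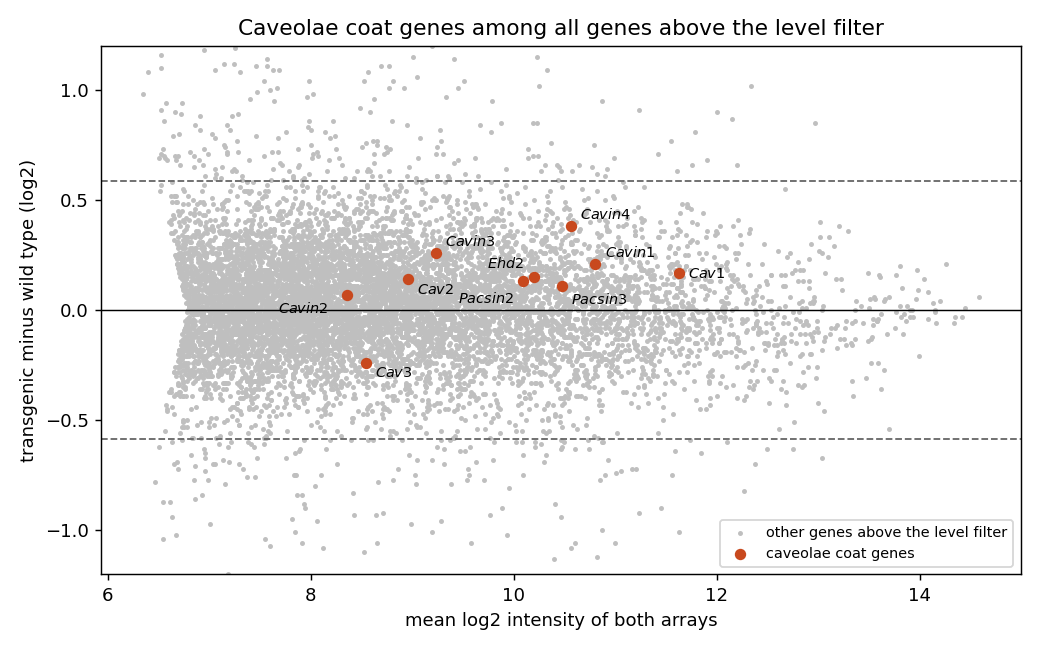
Difference between the arrays (vertical axis, log2, transgenic minus wild type) against the mean log2 intensity of both arrays for the genes above the level filter (grey) and the 10 caveolae coat genes (coloured and named), with dashed lines at 1.5-fold. The members lie inside the grey cloud, from -0.24 for Cav3 to 0.38 for Cavin4, and 68 grey genes lie beyond the vertical axis.

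Partner genes were grouped by role and set beside the same background. Of 10 measured genes for proteins that tie caveolae to the cytoskeleton or act as kinases there, 7 were higher, 2 lower and 1 equal, with a median of 0.22, where 53.5% of genes above the filter were higher. Diaph1, a formin that nucleates actin filaments, passed 1.5-fold at 0.64 (10.24 in the transgenic array, against 9.60 in wild type), the only one of 61 measured partner genes over all 6 lists to do so. With 2.66% of genes above the filter higher by that much, 1 of 61 is near the background. Prkca, a protein kinase C, was lowest at -0.09. Among 16 genes of the sarcolemma and T-tubule, 11 were higher and 5 lower, with a median of 0.18. Dmd, the gene of dystrophin, was highest at 0.56 (10.76 in the transgenic array, against 10.20 in wild type), just under 1.5-fold. Mtm1, the phosphoinositide phosphatase myotubularin, was lowest at -0.14. Over all 61 partner genes, 40 were higher, 20 lower and 1 equal, with a median of 0.08 against 0.03 over the genes above the filter.

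No signalling gene linked to caveolae or membrane rafts passed 1.5-fold. Of all genes above the filter, 2.66% were higher and 1.71% lower by that much, so this count is near the background. Of 10 measured genes of insulin signalling at rafts, 6 were higher and 4 lower, with a median of 0.045. Rapgef1, an exchange factor that acts with TC10 in GLUT4 translocation, was highest at 0.36, and Flot2, the raft protein flotillin-2, was lowest at -0.19. Of 10 genes of signalling proteins that bind caveolin, 8 were higher and 2 lower, with a median of 0.12, and 2 were under the level filter. Among all genes above the filter, 53.5% were higher by any amount. Adcy5, an adenylyl cyclase, was highest at 0.34 and under the level filter, and Cd36, a fatty acid transporter, was lowest at -0.13. Of 8 genes that supply or sort membrane cholesterol, sphingomyelin and phosphatidylserine, 4 were higher and 4 lower, with a median of 0.01 that was below 0 after loess (-0.02) or repeated quantile scaling (-0.03). Sgms2, a sphingomyelin synthase, was highest at 0.54 and under the level filter, and Ptdss2, a phosphatidylserine synthase, was lowest at -0.26.

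Among markers of other cell types that hold caveolae, those of white adipocytes were mostly higher in the transgenic array and those of endothelium went both ways. In bulk muscle a different number of cells of a type and a different amount of RNA per cell cannot be told apart. Of 11 measured white adipocyte markers, 9 were higher and 7 passed 1.5-fold, 6 of them above the level filter. Among all genes above the filter, 53.5% were higher by any amount and 2.66% by 1.5-fold. The white adipocyte median was 0.86, from Cidea, a lipid droplet protein, at -0.19 to Lep, the hormone leptin, at 3.20. Cidea, at 5.56 in the transgenic array and 5.75 in wild type, was under the level filter. The summed linear intensity of these 11 markers was 6654 in the transgenic array, against 4104 in wild type. Such sums are weighted to the genes with the brightest probes. In this list that was Pnpla2, near equal at 11.12 in the transgenic array and 11.21 in wild type. For the fibroblast list it was Dcn, at 13.29 in the transgenic array and 13.15 in wild type. Of 10 fibroblast markers, 9 were higher (median 0.24, from Thy1 at -0.15 to Lum at 0.74), with a summed intensity of 18380 in the transgenic array, against 15647 in wild type. Smooth muscle and pericyte markers had a median of 0.24 over 11, from Kcnj8 at -0.34 to Cnn1 at 0.88, with sums of 8406 in the transgenic array, against 7564 in wild type. Of 14 endothelial markers, 5 were higher, 7 lower and 2 equal, with a median of -0.01. They ran from Plvap, an endothelial diaphragm protein, at -0.46 to Vwf, von Willebrand factor, at 0.32. Their sum was 8684 in the transgenic array, against 9290 in wild type. Every marker of these 4 lists was above 5.42 in both arrays, the 95th percentile of 1027 olfactory receptor genes. The part of these cell types in the differences of Cav1, Cav2, Ehd2 and the cavins was not tested.

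Slow fibre markers were lower in the transgenic array, whereas fast fibre markers were near equal. The fast fibre markers read at 13.11 or above in both arrays, and the slow ones at 13.37 or below. Whether differences between such bright signals were compressed was not tested. All 10 slow fibre markers were lower and 9 passed 1.5-fold, against 44.2% and 1.71% of genes above the filter. The slow fibre markers had a median of -0.745. They ran from Myl3, the slow myosin light chain, at -1.02 to Casq2, the slow form of calsequestrin, at -0.18, with a summed intensity of 32948 in the transgenic array, against 56295 in wild type. The fast fibre median was 0.025 over 10 markers, from Actn3 at -0.06 to Myh1 at 0.36, with sums of 162801 in the transgenic array, against 159162 in wild type. Cav3 at -0.24 and Cavin4 at 0.38, both fibre genes, lay on opposite sides of 0 beside these values, and the part of fibre type in either was not tested. Macrophage markers had a median of 0.14 over 9, from Fcer1g at -0.13 to C1qa at 0.25, and Schwann cell markers one of 0.40 over 5, from Sox10 at 0.09 to Egr2 at 1.08.

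**Figure D3:**
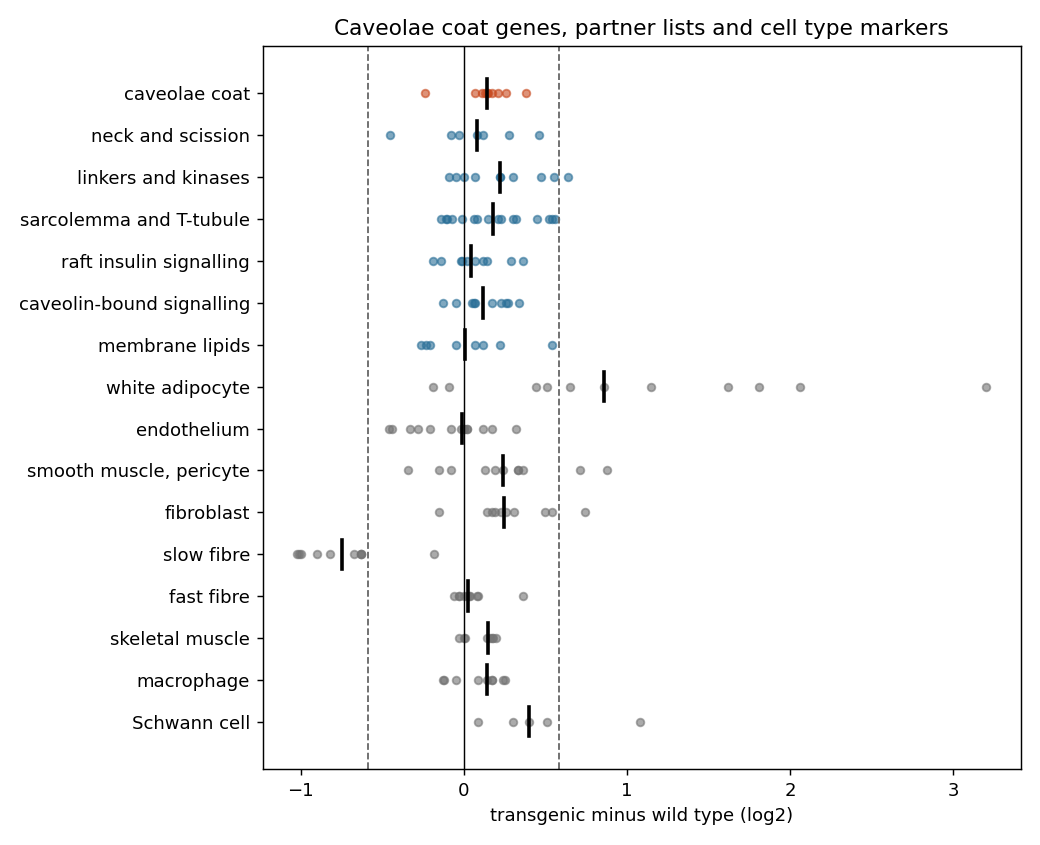
Differences (log2, transgenic minus wild type) of the caveolae coat genes (top row), their partner lists (blue) and cell type marker lists (grey), with 1 point per measured gene, black ticks at the medians and dashed lines at 1.5-fold. The caveolae coat genes keep between -0.24 and 0.38, while white adipocyte markers reach 3.20 and slow fibre markers reach -1.02.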

How the data were processed

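RNA of hindlimb muscle was measured on 2 whole-transcript arrays, 1 per genotype. The deposited values are log2 intensities of 35556 probe sets that the authors made with RMA in Partek, per the submitters' processing notes; their versions and settings are not stated there. RMA compresses large ratios and gives no detection call, and precision is limited by the number of arrays. Gene names came from the platform annotation: 21789 probe sets carry 1 symbol, giving 19938 genes. Where a gene had several, the one with the highest mean was used. Members were found by symbol, and older cavin symbols were looked up too.

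Differences, counts past 1.5-fold, list medians and ranks among 501 genes of like level were computed in Python 3.11.15 with numpy 2.4.6, pandas 2.3.3 and statsmodels 0.14.6. Figures were drawn with matplotlib 3.10.9. Counting was tested on simulated data whose planted differences lay clear of 1.5-fold, so values near that limit were not tried. Ranking was run on the same data without a set outcome to meet. The text names every member, Stx4a, the highest and lowest gene of each list and every partner past 1.5-fold. Members and lists were chosen with earlier results of these data known. List genes without a probe set of their own were not analysed here. Alternatives were averaged probe sets, median centring, loess (span 0.3, 3 iterations), repeated quantile normalization, other folds and filters, and means for medians.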

Additional observations from a re-analysis of the deposited data

How the results depend on the processing

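All 10 members kept their direction under averaged probe sets, median centring, loess and repeated quantile normalization. Cav3 lay between -0.30 and -0.24, Cavin4 between 0.35 and 0.38, and Cavin2 was as low as 0.01 after quantile normalization. Averaging and centring could not change a member, because each has 1 probe set and the median difference over all genes was 0. The members' median ranged from 0.115 to 0.145 over those alternatives and the mean. No member passed 1.5-fold or 2-fold in any scaling or filter run, and at the lower limit of 0.32 on the log2 scale 1 was higher and 0 lower. The median of the membrane lipid list was -0.02 with loess (-0.0155) and -0.03 with quantile normalization, against 0.01 as deposited; the cause was not tested. The white adipocyte mean was 1.09 against a median of 0.86. No scaling moved the median of all genes by over 0.1, the largest shift being to -0.03. In all, 132 of 136 alternative values either kept their sign and moved by no more than 0.1 on the log2 scale, or left a count as it was. Many of the 136 could not move: all median centring runs, and the averaged probe set and level filter runs on the members. The tally is therefore no measure of robustness. No paired analysis was possible because each genotype has 1 array, and no array could be left out. Depth is a matter of signal over background here: all 10 members were above the olfactory receptor percentile of 5.42 in both arrays.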
